A study of Homo sapiens with 6 samples.

Results

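Potassium channel genes were taken as every symbol in the count tables made of KCN, further letters and a closing number, with no hyphen. The rule gave 95 of 26485 symbols and used no measured value. RNA was sequenced from AF22, an established human neural stem cell line made from reprogrammed cells, in 6 libraries of 3 per group. Knockdown libraries carry labels naming COMMD3 together with its readthrough transcript COMMD3-BMI1 as targets, with no description of the reagent. Control libraries are labelled shControl, with the genotype WT and no named target. AF22 is the only line sampled. Whether replicates were separate cultures is not stated, so a p-value here reflects the spread among these libraries, which may be technical.

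Potassium channels let potassium ions leave or enter a cell down their electrochemical gradient, and so set its resting voltage and how it repolarises. Pore-forming subunits fall into voltage-gated (Kv), inwardly rectifying (Kir), tandem pore domain (K2P) and sodium- or calcium-activated families. Auxiliary subunits change how pores open or how many reach the surface. In neural progenitors, resting voltage is known to change through the cell cycle and during differentiation.

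Libraries held between 8574066 and 9692967 counts in knockdown and between 7294687 and 11579849 in control. COMMD3 had 12.9, 11.3 and 10.5 CPM (counts per 1000000 of a TMM-scaled library) in knockdown, against 31.7, 29.7 and 27.6 CPM in control, and COMMD3-BMI1 was listed at 0 in every library. BMI1 had 104.8 ± 1.79 CPM in knockdown and 110.2 ± 2.41 CPM in control (SD, n = 3 each) and did not pass the test. The neural stem cell markers SOX2 and NES were present in all libraries, at 252 CPM or more for SOX2 and 643 CPM or more for NES, and HES5 was listed at 0 in all 6. Of 37 interferon-response genes, 36 were tested and 34 were higher in knockdown, with a summed level of 4041 to 4678 CPM in knockdown and 745 to 801 CPM in control.

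Most potassium channel genes were counted too little in these cells to be tested. Of the 95, 76 had 1 or more counts in any library and 19 were listed at 0 in all 6. Among those at 0 were the Kv pores and modifiers KCNA5, KCNA7, KCNA10, KCNB2, KCNC2, KCNG2, KCNG4, KCNH6, KCNQ1 and KCNS2, the Kir genes KCNJ3, KCNJ9 and KCNJ13, the K2P genes KCNK13, KCNK16 and KCNK18, the sodium-activated KCNT1 and the Kv4 partner KCNIP4. Across all symbols, 6670 of 26485 (25.2%) were listed at 0 in every library. A listed 0 can come from the counting, since EIF4A1, a translation factor every cell uses, was also listed at 0 throughout. For a gene at 0, a floor of 3 counts allows up to 0.309 to 0.349 CPM in a knockdown library and 0.259 to 0.42 CPM in a control library, for counting error only. A filter on low counts kept 33 members for testing. KCNH7, with 64 counts over the 6 libraries, was the lowest member inside it, and KCNJ5, with 57, the highest outside it.

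Reads of the 95 genes made up 0.0432% to 0.0438% of a knockdown library and 0.0463% to 0.0499% of a control library. Their sum was 426, 433 and 437 CPM in knockdown replicates 1 to 3, against 471, 501 and 473 CPM in control replicates 1 to 3, so the groups did not overlap. A single gene, KCNK5, supplied 28.0% to 29.4% of that sum in knockdown and 31.2% to 32.2% in control. The K2P genes summed to 144 CPM in knockdown and 179 CPM in control, and the Kir genes to 61.1 CPM in knockdown and 76.5 CPM in control. Most of the K2P gap lay in KCNK5, with means of 123 CPM in knockdown and 153 CPM in control. Most of the Kir gap lay in KCNJ2, with means of 35.3 CPM in knockdown and 48.9 CPM in control. KCNK5 and KCNJ2 also held most of the gap in the sum of all 95 genes. Among smaller sums, Kv3 pores had 5.08 CPM in knockdown and 6.78 CPM in control, and Kv4 pores had 2.88 CPM in knockdown and 4.01 CPM in control. These gaps lay mostly in KCNC1 (2.78 CPM in knockdown, 4.24 CPM in control) and KCND2 (0.97 CPM in knockdown, 2.15 CPM in control). Class sums are sums of group means and were not tested. All Kv pores and modifiers together summed to 142 CPM in knockdown and 146 CPM in control, auxiliary subunits to 48.9 CPM in knockdown and 47.1 CPM in control, and sodium- or calcium-activated pores to 35.6 CPM in knockdown and 33.6 CPM in control.

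**Figure D1:**
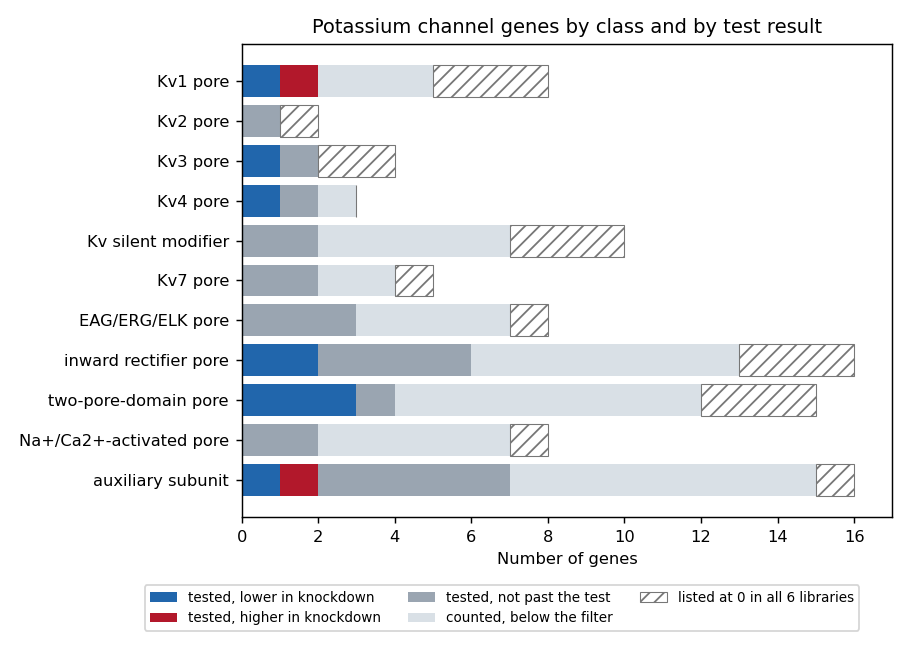
Number of potassium channel genes per structural class (bars, 95 genes in all), divided by test result. Of 33 tested genes, 9 were lower and 2 higher in knockdown, 43 were counted but below the filter, and 19 were listed at 0 in all 6 libraries.

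Of the 33 tested members, 2 rose, 9 fell and 22 did not pass the test (quasi-likelihood test of edgeR, with p adjusted by Benjamini-Hochberg over all genes to under 0.05). This is 33.3% of the members, and the same share of all 13632 tested genes was called, 33.3%, so the number called is not a result about potassium channels. By direction, 27.3% of members fell, against 18.1% of all tested genes, and 6.06% rose, against 15.3%. The median log2 fold change (log2 ratio of knockdown over control) was -0.14 over the tested members and 0.00 over all tested genes, and 22 of the 33 had a negative value. The libraries of the groups did not overlap for 12 of the 33 (36.4%), and for 44.3% of all tested genes. These shares are given as a description and were not tested against each other.

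The number called depended on the tool and on single libraries. It was 4 by DESeq2 (0 higher), which gave 2 higher and 7 lower at an unadjusted p under 0.05, and 9 by limma-voom. It was 6 without control replicate 1 and 6 without knockdown replicate 1. The number called over all genes was also lower by DESeq2 and without either of these replicates. By limma-voom it was nearly unchanged, at 4515 against 4545 in the main fit. DESeq2 called 12.1% of members and 21% of all tested genes, and limma-voom 27.3% of members and 33.1% of all. Without control replicate 1 the shares were 17.6% of members and 28.3% of all, and without knockdown replicate 1 they were 17.6% and 26.3%. KCNK5, KCNJ2, KCNJ16 and KCNK3 passed in the same direction under all 15 other settings tried, and all 4 fell. In bulk RNA, fewer cells of a type and less RNA per cell cannot be told apart.

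**Figure D2:**
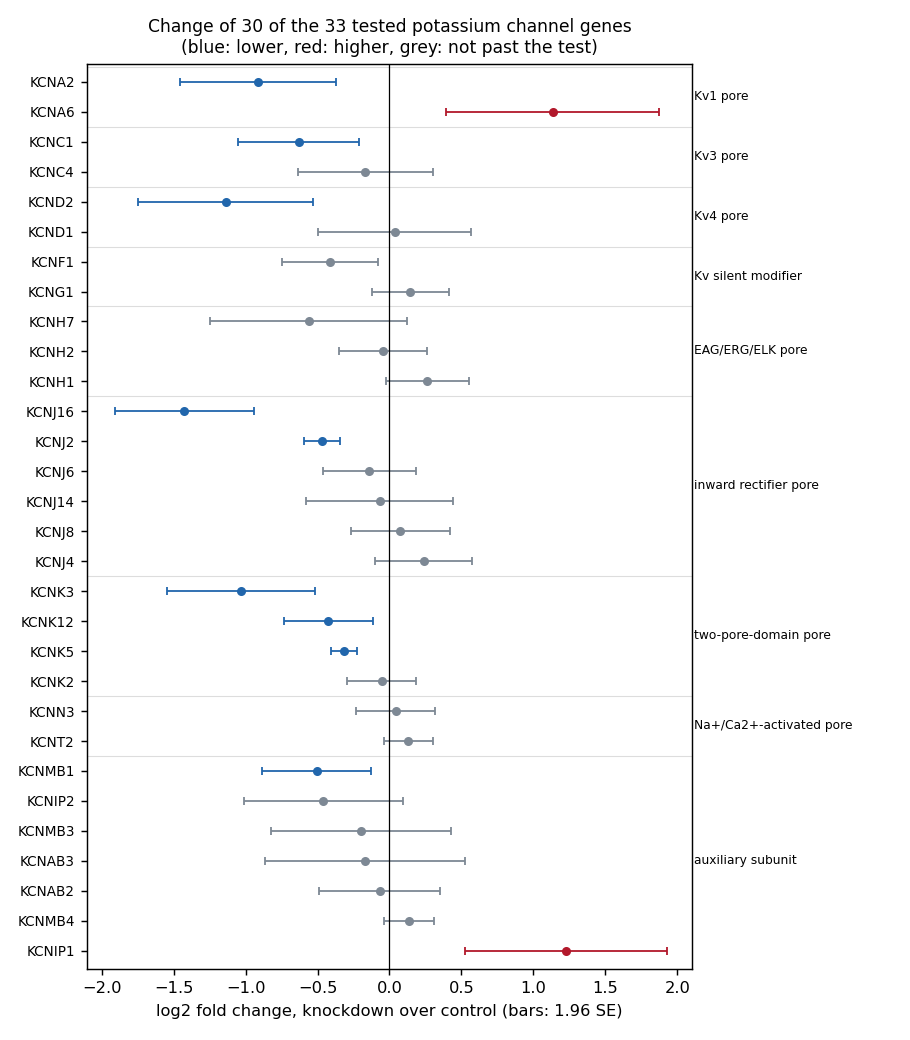
Log2 fold change, knockdown over control, of 30 of the 33 tested potassium channel genes (points), with 95% intervals as bars, grouped by class. The 9 genes that fell (blue) lie between -1.43 and -0.32, and the 2 that rose (red) at 1.13 and 1.23.

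The Kir genes with the clearest change were KCNJ2 and KCNJ16, which lie beside each other on chromosome 17, and both fell. KCNJ2 (ENSG00000123700, GRCh38 chromosome 17 from 70168673 to 70180048, plus strand) encodes Kir2.1, a strong inward rectifier that holds the resting voltage near the potassium equilibrium. Its level was 33.6, 35.3 and 37.0 CPM in knockdown, against 49.6, 48.9 and 48.2 CPM in control. Every knockdown library lay below every control library, with a log2 ratio of -0.47 ± 0.0642 (SE; 1.39-fold lower; edgeR adjusted p = 9.28e-07). KCNJ16 (ENSG00000153822, 70053429 to 70135608, plus strand) encodes Kir5.1, which works in channels with other Kir subunits such as Kir4.1. It had 2.09, 2.09 and 0.926 CPM in knockdown, from 20, 18 and 9 counts, against 4.32, 4.69 and 4.76 CPM in control, from 50, 41 and 34 counts. The groups did not overlap, and KCNJ16 had the largest fall of the 33 tested members (log2 ratio -1.43 ± 0.246 SE, 2.69-fold lower, edgeR adjusted p = 3.52e-05). KCNJ10, which encodes Kir4.1, had 2 counts over the knockdown libraries and 3 over the control libraries.

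These genes are 33.1 kb apart on the same strand. KCNJ2-AS1, an antisense RNA gene on the minus strand from 70166961 to 70169402, overlaps 3.32% of the exon bases of KCNJ2 and was singled out after its values were seen. It had 3.66, 3.14 and 3.497 CPM in knockdown, against 7.17, 4.69 and 6.87 CPM in control, a log2 ratio of -0.87 ± 0.192 (SE; edgeR adjusted p = 0.00075). The strand setting of the counting is not given in the sources used here, so reads in the shared bases could have gone to either gene. The start windows of the pair are shown because both genes fell while their sequences differ in make-up. Each window runs from 250 bases before to 50 after the start in RefSeq (GRCh38.p14), 5′ to 3′, with the GC box GGGCGG on either strand in capitals, and KCNJ16 is shown at the first of its 3 listed starts.
KCNJ2, chr17:70169282-70169581, plus strand: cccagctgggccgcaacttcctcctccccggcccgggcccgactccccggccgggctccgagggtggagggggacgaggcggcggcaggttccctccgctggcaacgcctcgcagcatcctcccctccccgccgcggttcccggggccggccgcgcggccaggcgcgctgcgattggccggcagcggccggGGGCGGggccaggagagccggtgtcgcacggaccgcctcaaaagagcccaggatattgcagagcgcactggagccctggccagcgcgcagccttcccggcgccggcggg
KCNJ16, chr17:70074975-70075274, plus strand: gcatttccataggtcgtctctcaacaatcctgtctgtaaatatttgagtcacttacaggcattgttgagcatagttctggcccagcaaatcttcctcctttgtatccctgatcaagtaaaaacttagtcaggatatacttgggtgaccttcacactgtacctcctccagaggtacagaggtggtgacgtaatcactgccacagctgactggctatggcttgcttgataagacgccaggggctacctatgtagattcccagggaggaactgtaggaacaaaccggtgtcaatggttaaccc
The KCNJ2 window is 78% G and C and holds 1 GC box, and it also spans the start of KCNJ2-AS1 on the other strand. The KCNJ16 window is 47% G and C and holds none. RefSeq windows matched 71 of the 95 members by symbol, and 25 of the 33 tested. A GC box was found at 47 of these 71 genes (66.2%) and at 18 of the 25 tested (72%). It was found at 7 of 8 matched members that fell. Over all 27305 genes with a window, tested or not, the share was 48.3%. The interferon-stimulated response element, searched as TTTC, any 2 bases and TTTC on either strand, was found at 1 of the 25, KCNMB3, and at 4.38% of all genes with a window. A match describes letters in a window and is not a binding site.

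The other 4 tested Kir genes did not pass. KCNJ4, which encodes Kir2.3, had 7.98 ± 1.65 CPM in knockdown and 6.69 ± 1.73 CPM in control (SD, n = 3 each). KCNJ6, which encodes the G protein-gated GIRK2, had 5.49 ± 0.154 CPM in knockdown and 6.12 ± 0.813 CPM in control. KCNJ8, which encodes the Kir6.1 pore of ATP-sensitive channels, had 5.26 ± 0.599 CPM in knockdown and 4.90 ± 0.552 CPM in control. KCNJ14 had a log2 fold change of -0.07. The libraries of the groups overlapped for all 4.

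K2P genes encode leak channels that are open at rest. Of 4 tested K2P members, 3 fell and none rose, beside 18.1% of all tested genes that fell. KCNK5 (ENSG00000164626, chromosome 6 from 39188973 to 39229450, minus strand) encodes TASK2, a leak channel that opens at alkaline pH. It was the most abundant member per length, at 32.8 CPM per kilobase of exon in knockdown and 40.8 in control, while KCNJ2 came next at 6.33 in knockdown and 8.77 in control. KCNK5 had 119, 127 and 123 CPM in knockdown, against 150, 162 and 148 CPM in control. The groups did not overlap, with a log2 ratio of -0.32 ± 0.0462 (SE; 1.24-fold lower; edgeR adjusted p = 3.05e-06). Its neighbours KCNK17 and KCNK16, other K2P genes on the same strand, had 2 counts and none over the 6 libraries.

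KCNK3 (ENSG00000171303, chromosome 2 from 26692690 to 26733420, plus strand) encodes TASK1, an acid-sensitive leak channel. It had 1.05, 1.63 and 1.75 CPM in knockdown, from 10, 14 and 17 counts, against 2.85, 3.31 and 2.94 CPM in control, from 33, 29 and 21 counts. The groups did not overlap (log2 ratio -1.03 ± 0.263 SE, 2.04-fold lower, edgeR adjusted p = 0.00292). KCNK12 (ENSG00000184261, chromosome 2 from 47516581 to 47570939, minus strand) encodes THIK2, known as a channel that passes little current on its own. It had 6.60, 7.57 and 6.38 CPM in knockdown, against 10.4, 9.83 and 6.59 CPM in control, and control replicate 3 lay inside the knockdown range. The log2 fold change was -0.42 (SE 0.157, edgeR adjusted p = 0.0364). This call did not hold by DESeq2 or limma-voom, whose adjusted p were 0.163 and 0.054. Nor did it hold with control replicate 1, control replicate 2, knockdown replicate 1 or knockdown replicate 3 left out, where edgeR gave 0.243, 0.12, 0.0947 and 0.102. KCNK2, which encodes the stretch-sensitive TREK1, had 10.1, 11.8 and 11.01 CPM in knockdown, against 11.7, 11.5 and 10.5 CPM in control. Its log2 fold change was -0.05, with a 95% interval from -0.29 to 0.18.

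**Figure D3:**
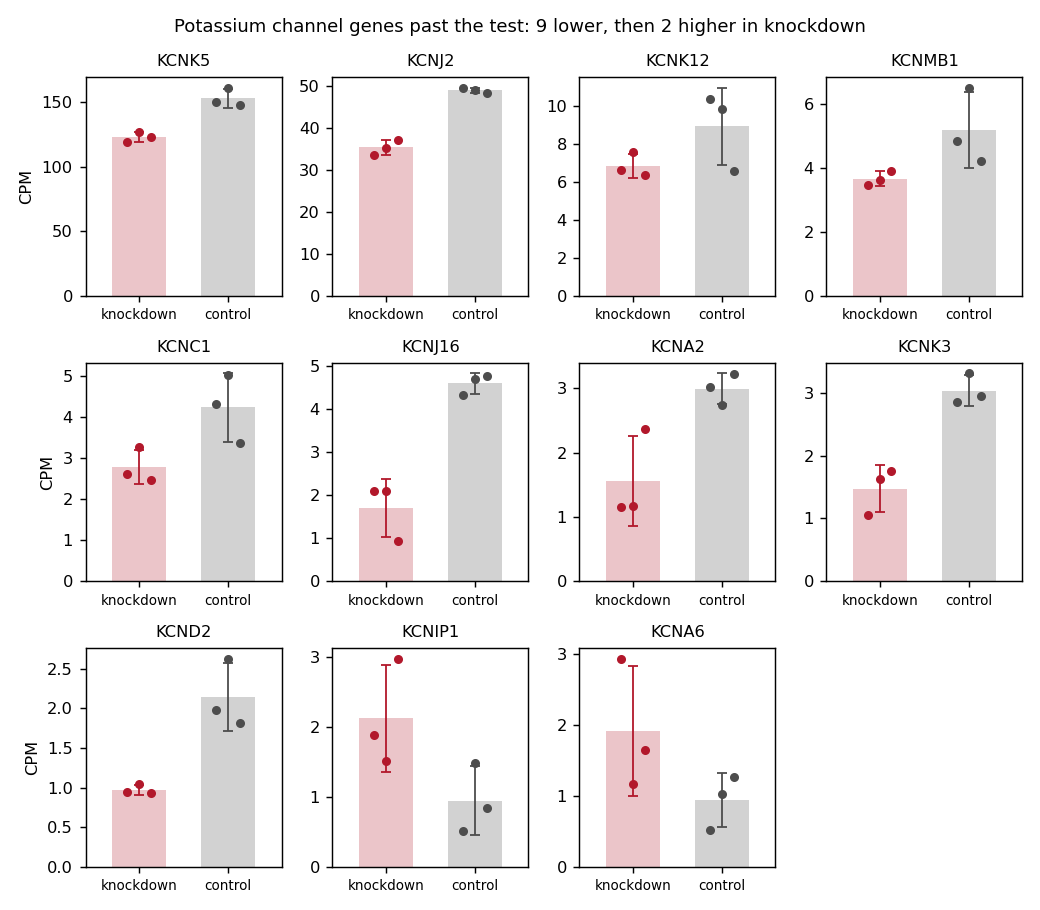
CPM of the 11 potassium channel genes past the test in each library (points), with the group mean (bars) and SD (error bars), n = 3 per group. Groups overlap for KCNK12 and KCNA6 only, and scales differ between genes.

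Of 14 tested Kv pores and modifiers, 3 fell, 1 rose and 10 did not pass, while 18.1% of all tested genes fell and 15.3% rose. KCNA2 (ENSG00000177301, chromosome 1 from 110519837 to 110631474, minus strand) encodes Kv1.2, a low-threshold delayed rectifier of axons. It had 1.15, 1.16 and 2.37 CPM in knockdown, from 11, 10 and 23 counts, against 3.02, 2.74 and 3.22 CPM in control, from 35, 24 and 23 counts. Knockdown replicate 3 stood close to the controls, yet the groups did not overlap (log2 ratio -0.91 ± 0.275 SE, 1.88-fold lower, edgeR adjusted p = 0.0108). DESeq2 did not call it (adjusted p = 0.0679), and edgeR gave 0.0724 with knockdown replicate 1 left out and 0.0629 with knockdown replicate 2 left out.

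KCNA6 (ENSG00000151079, chromosome 12 from 4809176 to 4813412, plus strand), which encodes Kv1.6 of the same family, was called in the other direction. It had 2.93, 1.16 and 1.65 CPM in knockdown, from 28, 10 and 16 counts, against 0.518, 1.03 and 1.26 CPM in control, from 6, 9 and 9 counts. The groups overlapped, and knockdown replicate 1 was the highest library (log2 ratio 1.13 ± 0.377 SE, edgeR adjusted p = 0.0202). DESeq2 did not call it (adjusted p = 0.112), and edgeR gave 0.165 with control replicate 1 left out and 0.238 with knockdown replicate 1 left out. In GENCODE v29, 100% of the exon bases of KCNA6 are also exon bases of GALNT8 on the same strand. GALNT8, singled out after its values were seen, had 1.57, 2.21 and 1.34 CPM in knockdown, against 1.47, 0.457 and 0.56 CPM in control (log2 ratio 0.88, edgeR adjusted p = 0.0687). How reads of this pair were divided is not given in the sources used here, so the level of KCNA6 is uncertain.

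KCND2 (ENSG00000184408, chromosome 7 from 120273668 to 120750331, plus strand) encodes Kv4.2, which carries the fast A-type current of dendrites. It had 0.942, 1.05 and 0.926 CPM in knockdown, from 9 counts in each library, against 1.99, 2.63 and 1.82 CPM in control, from 23, 23 and 13 counts. The groups did not overlap (log2 ratio -1.14 ± 0.31 SE, 2.2-fold lower, edgeR adjusted p = 0.00512), and of all settings tried DESeq2 alone did not call it (adjusted p = 0.0552). The other tested Kv4 gene, KCND1, had 1.87 ± 0.116 CPM in knockdown and 1.82 ± 0.205 CPM in control (SD, n = 3 each). KCND3 had 2 counts over the 6 libraries.

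KCNC1 (ENSG00000129159, chromosome 11 from 17734774 to 17856804, plus strand) encodes Kv3.1, a fast delayed rectifier of rapidly firing neurons. It had 2.62, 3.26 and 2.47 CPM in knockdown, against 4.32, 5.03 and 3.36 CPM in control, with no overlap. The log2 fold change was -0.63 (SE 0.214, 1.55-fold lower, edgeR adjusted p = 0.0225). DESeq2 did not call it (adjusted p = 0.13). Leaving out control replicate 1, control replicate 2, knockdown replicate 1 or knockdown replicate 3 also ended the call, at adjusted p of 0.0622, 0.117, 0.0737 and 0.0798. KCNC4 of the same family did not pass (log2 fold change -0.17).

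Of the EAG, ERG and ELK family of Kv pores, 3 genes were tested and none passed. KCNH1, which encodes EAG1, had 12.5, 10.01 and 15.5 CPM in knockdown, against 10.01, 13.03 and 8.69 CPM in control (log2 ratio 0.26, edgeR adjusted p = 0.171). It passed as higher when control replicate 2 or knockdown replicate 2 was left out, at adjusted p of 0.0424 and 0.0448. Opposite-strand exons of another gene share 36.9% of its exon bases, and same-strand exons of other genes share 16.1%. KCNH2, which encodes the hERG channel, had 6.35 ± 0.223 CPM in knockdown and 6.54 ± 0.719 CPM in control (SD, n = 3 each). KCNH7, of the same ERG family, had 0.628, 1.16 and 1.03 CPM in knockdown, against 1.47, 1.37 and 1.26 CPM in control, with no overlap, and did not pass (edgeR adjusted p = 0.227).

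The silent modifiers, which form channels only together with Kv2 subunits, gave 2 tested genes. KCNG1 had 13.2, 13.4 and 21.1 CPM in knockdown, against 15.1, 12.9 and 15.3 CPM in control, with 1 high library, knockdown replicate 3. Its log2 fold change of 0.15 turned to -0.12 without that library. KCNF1 had 5.55, 5.59 and 7.2 CPM in knockdown, against 8.37, 6.17 and 10.2 CPM in control, and lay just outside the threshold (log2 ratio -0.41, edgeR adjusted p = 0.0598). It passed as lower without a filter (adjusted p = 0.0328), with control replicate 2 left out (adjusted p = 0.0132) and with knockdown replicate 3 left out (adjusted p = 0.0265). KCNF1 was singled out on these values.

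**Figure D4:**
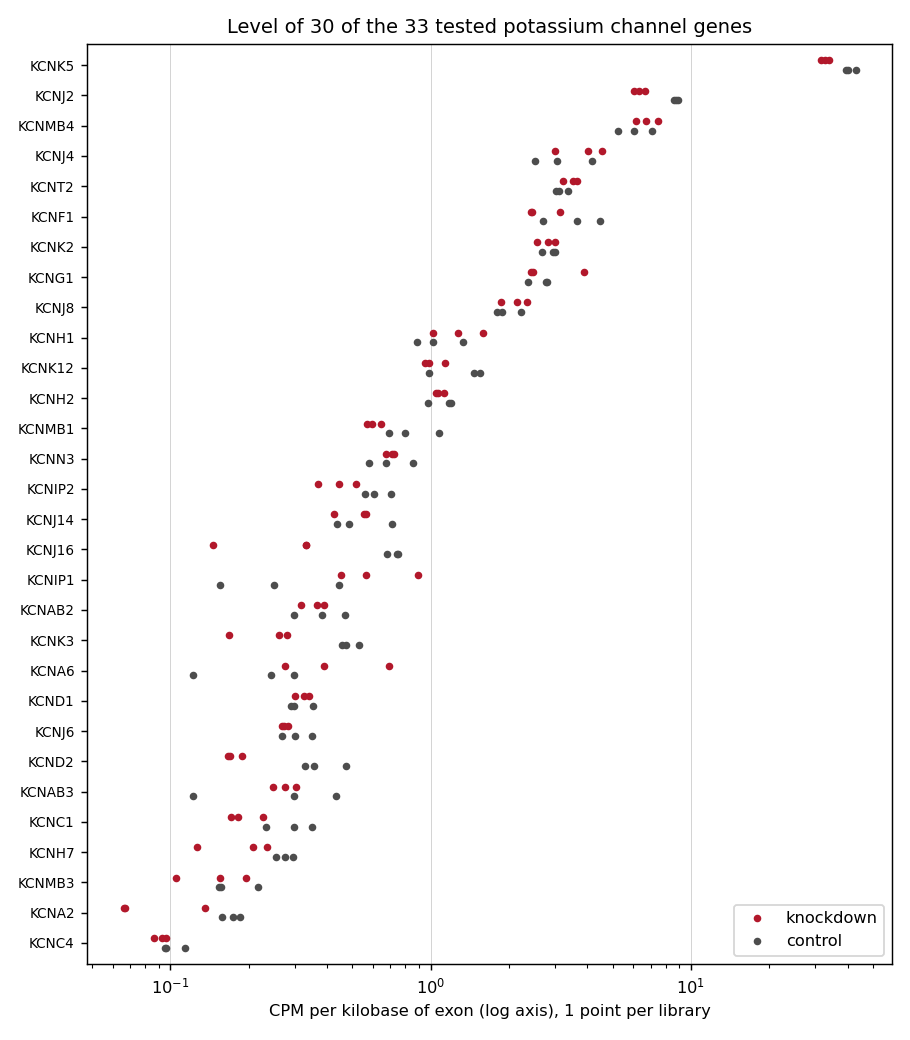
Level of 30 of the 33 tested potassium channel genes in CPM per kilobase of exon (log axis), with 1 point per library, ordered by the mean of all 6. KCNK5 stands above the rest at 32.8 in knockdown and 40.8 in control, and KCNJ2 follows at 6.33 in knockdown and 8.77 in control.

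Of 8 sodium- or calcium-activated pores, 2 were tested, and neither passed. KCNT2, which encodes the sodium-activated channel SLICK, had 22.8, 24.9 and 25.8 CPM in knockdown, against 22.01, 21.6 and 23.8 CPM in control (log2 fold change 0.13, 95% interval -0.04 to 0.30). KCNN3, which encodes the small-conductance calcium-activated channel SK3, had 9.57 ± 0.336 CPM in knockdown and 9.54 ± 1.92 CPM in control (SD, n = 3 each). KCNMA1, the pore of the large-conductance calcium-activated (BK) channel, was below the filter, with 2, 1 and 6 counts in knockdown, against 6, 10 and 1 counts in control.

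Of the KCNMB genes, which encode beta subunits of BK channels, 1 of 3 tested fell, beside 18.1% of all tested genes that fell. LRRC55, a gamma subunit of BK channels outside the KCN family, also fell and is described further on. KCNMB4, the neuronal beta subunit, had 36.4, 32.7 and 30.0 CPM in knockdown, against 29.4, 34.6 and 25.6 CPM in control. The groups overlapped (log2 ratio 0.14, edgeR adjusted p = 0.243), and the gene passed as higher without control replicate 2 (adjusted p = 0.0426). Per kilobase of exon, KCNMB4 reached 6.78 CPM in knockdown and 6.13 CPM in control. KCNMB1 (ENSG00000145936, chromosome 5 from 170374671 to 170389677, minus strand), the beta subunit best known from smooth muscle, had 3.46, 3.61 and 3.91 CPM in knockdown, against 4.83, 6.51 and 4.20 CPM in control. The groups did not overlap (log2 ratio -0.51 ± 0.194 SE, 1.42-fold lower, edgeR adjusted p = 0.044). This was the least stable call. Leaving out control replicate 1 or 2 gave adjusted p of 0.0531 and 0.274, and leaving out knockdown replicate 1, 2 or 3 gave 0.125, 0.0979 and 0.0555. Adjusted p was 0.179 by DESeq2, 0.0627 by limma-voom and 0.0532 with library-size scaling.

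KCNMB1 lies on the opposite strand inside the span of KCNIP1, which was called higher. KCNIP1 (ENSG00000182132, chromosome 5 from 170353487 to 170736632, plus strand) encodes KChIP1, a calcium-binding subunit that brings Kv4 pores to the surface. It had 1.88, 1.51 and 2.98 CPM in knockdown, from 18, 13 and 29 counts, against 0.518, 1.49 and 0.841 CPM in control, from 6, 13 and 6 counts. The groups stood apart only narrowly, at 1.51 CPM for the lowest knockdown library against 1.49 CPM for the highest control library (log2 ratio 1.23 ± 0.359 SE, 2.34-fold higher, edgeR adjusted p = 0.0088). DESeq2 did not call it (adjusted p = 0.0619), and edgeR gave 0.102 with control replicate 1 left out and 0.0838 with knockdown replicate 3 left out. KCNIP2, another Kv4 partner, had 1.51 ± 0.246 CPM in knockdown and 2.11 ± 0.246 CPM in control (SD, n = 3 each) and did not pass (log2 ratio -0.46, edgeR adjusted p = 0.218). KCNAB2, KCNAB3 and KCNMB3 did not pass either, with log2 fold changes from -0.20 to -0.07.

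Below the filter, 43 members had between 1 and 57 counts over the 6 libraries, 23 of them 10 or more. KCNN1, which encodes the calcium-activated channel SK1, had 11, 3 and 5 counts in knockdown, against 1 count in each control library, a ratio of 6.24 with an exact 95% interval from 1.84 to 32.9 for counting error only. KCNV1, a silent modifier, had 2, 4 and 8 counts in knockdown, against 1 count over the control libraries (ratio 13.8, interval 2.1 to 584). Both were singled out after their values were seen, and both passed as higher when no filter was used (edgeR adjusted p = 0.00955 and 0.00989). KCNJ15, which encodes Kir4.2, had 9, 5 and 7 counts in knockdown, against 4, 4 and 2 counts in control, and the interval of its ratio spanned 0.933 to 4.92.

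A 7-base word, TCATCCA, was singled out in an earlier analysis of these same libraries as marking 3′ untranslated regions of genes lower in knockdown, so its presence here is a description and no independent support. It occurs in the longest annotated 3′ untranslated region of 6 of the 33 tested members (18.2%), and of 1446 of 12056 tested genes with such a region (12.0%). The 6 members had negative log2 fold changes, as did 22 of all 33 tested members and 971 of the 1446 genes (67.2%). Of the 6 members, KCNK5, KCNK12 and KCNC1 fell, and 3 did not pass. The median log2 fold change was -0.37 over these 6 and -0.05 over the other 27, and over all tested genes it was -0.10 with the word and 0.02 without. The other members that fell, KCNJ2, KCNJ16, KCNK3, KCND2, KCNA2 and KCNMB1, do not hold the word, nor do KCNIP1 and KCNA6, which rose. The first site is shown for 5 of the 6 members with the word, the 3 that fell before 2 that did not pass. Each is shown with 10 bases on either side (GENCODE v29, 5′ to 3′ on the transcript, word in capitals).
KCNK5, GRCh38 chr6:39189408-39189414, minus strand: ttcggtgaccTCATCCAaggccatgat
KCNK12, GRCh38 chr2:47520070-47520076, minus strand: tttcacaagcTCATCCAcagcagtgct
KCNC1, GRCh38 chr11:17776724-17776730, plus strand: agccactatcTCATCCAaaggatgggg
KCNC4, GRCh38 chr1:110238456-110238462, plus strand: ggtactggtgTCATCCActtgtgtagt
KCNJ6, GRCh38 chr21:37613568-37613574, minus strand: caccaaacacTCATCCAttttctggat
Coordinates are those of the word. KCNC4 and KCNJ6 each hold 2 copies in regions of 16815 and 17783 bases, against 1 copy in 1917 bases for KCNK5, and the median region was 2445 bases over tested members and 1464.5 bases over all tested genes.

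Genes outside the KCN family that shape the same currents moved in both directions. Of 25 partner subunits and other potassium conductances, 18 were tested. Of these, 3 rose, 4 fell and 11 did not pass, and their median log2 ratio was 0.06. LRRC55, a gamma subunit of BK channels, fell to 63.6 ± 3.76 CPM in knockdown, against 81.4 ± 2.72 CPM in control (SD, n = 3 each; log2 ratio -0.35 ± 0.0534 SE, edgeR adjusted p = 5.25e-06). HCN3, a cation channel opened by hyperpolarisation, fell to 19.3 ± 3.11 CPM in knockdown, against 26.2 ± 0.987 CPM in control. ADAM22, a synaptic protein that binds LGI1 and Kv1 channels, fell by 0.58 on the log2 scale, and VAPA, a tether between endoplasmic reticulum and plasma membrane that clusters Kv2 channels, rose by 0.15. ABCC9, the sulfonylurea receptor SUR2 that partners Kir6 pores, had 94.7 ± 2.43 CPM in knockdown and 101.5 ± 2.53 CPM in control and did not pass (edgeR adjusted p = 0.0924). DPP6, a Kv4 partner, was listed at 0 in all 6 libraries. The list's count fell to 3 without knockdown replicate 1, to 4 without control replicate 2 and to 4 by DESeq2, and the call of VAPA ended when knockdown replicate 1 was left out (adjusted p = 0.0567).

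Of 14 sodium channel genes, 7 were tested and 1 fell, SCN1A, the pore of Nav1.1. SCN1A had 30.4, 25.02 and 33.4 CPM in knockdown, against 53.4, 39.3 and 51.7 CPM in control (log2 ratio -0.70 ± 0.0935 SE, edgeR adjusted p = 6.93e-07). Of 26 calcium channel genes, 14 were tested, 1 rose and 4 fell, with a median of -0.17. CACNG8, an AMPA receptor auxiliary subunit, fell to 34.3 ± 1.78 CPM in knockdown, against 51.9 ± 1.79 CPM in control (SD, n = 3 each). CACNA1G, the T-type pore Cav3.1, fell to 5.001 ± 1.11 CPM in knockdown, against 9.22 ± 1.03 CPM in control. CACNB3 fell by 0.35 and CACNG7 by 0.25 on the log2 scale.

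Of 33 potassium pumps, cotransporters and their regulators, 18 were tested, 2 rose and 5 fell, with a median of -0.07. ATP1B1, a beta subunit of the sodium pump, fell to 145 ± 2.24 CPM in knockdown, against 167 ± 3.51 CPM in control (SD, n = 3 each). SLC12A2, the NKCC1 cotransporter that brings potassium and chloride in, fell to 177 ± 3.66 CPM in knockdown, against 236 ± 6.66 CPM in control (log2 ratio -0.41 ± 0.0431 SE, edgeR adjusted p = 6.12e-09). The shares called were 38.9% of the partner list, 14.3% of sodium channels, 35.7% of calcium channels and 38.9% of pumps and transporters, beside 33.3% of all tested genes.

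**Figure D5:**
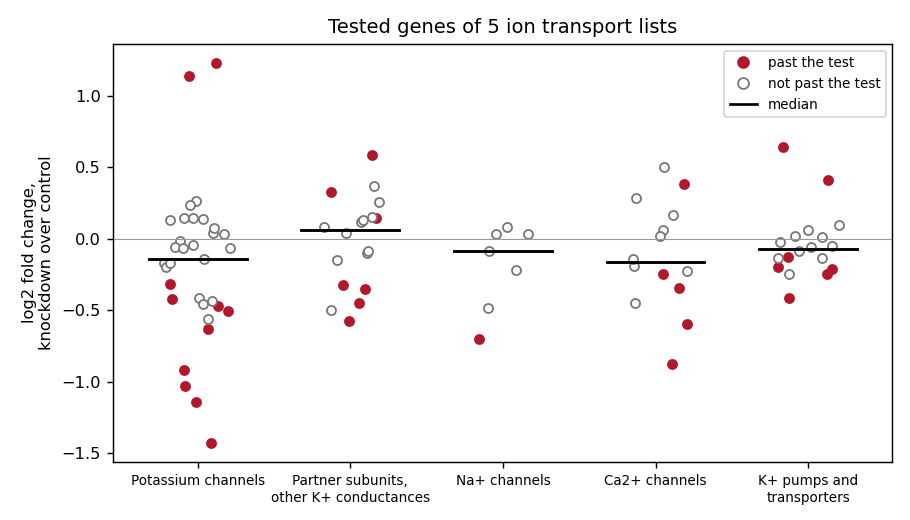
Log2 fold change, knockdown over control, of each tested gene in the potassium channel set and in 4 lists of partners, sodium channels, calcium channels, and potassium pumps and transporters, with the median as a line. Medians are -0.14, 0.06, -0.08, -0.17 and -0.07 in that order, and filled points passed the test.

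Of 18 neuronal markers, 9 were tested, 1 rose, 3 fell and 5 did not pass. Their summed level was 902 to 948 CPM in knockdown and 1015 to 1067 CPM in control, with STMN2, ELAVL4 and SLC32A1 listed at 0. Of 10 neural crest and Schwann cell markers, 8 were tested and 4 fell, with a sum of 539 to 577 CPM in knockdown and 598 to 615 CPM in control, and SOX10 and FOXD3 listed at 0. Of 8 astrocyte markers, 5 were tested, 1 rose and 2 fell, with a sum of 611 to 636 CPM in knockdown and 611 to 638 CPM in control, and GFAP listed at 0. Of 6 endothelial markers, 4 were tested and 3 fell, with a sum of 93.1 to 105 CPM in knockdown and 137 to 145 CPM in control. Of 9 mesenchymal markers, all tested, 3 rose and 2 fell, with a sum of 1774 to 1849 CPM in knockdown and 1649 to 1746 CPM in control. Of 16 neural stem cell markers, 15 were tested, 1 rose and 6 fell, with a sum of 3178 to 3289 CPM in knockdown and 3268 to 3478 CPM in control. Of 10 oligodendrocyte markers, 6 were tested, 1 rose and 3 fell, with a sum of 394 to 405 CPM in knockdown and 386 to 400 CPM in control, and SOX10 listed at 0. Of 6 pluripotency markers, 3 were tested, 1 rose and 1 fell, with a sum of 635 to 693 CPM in knockdown and 531 to 536 CPM in control, and TDGF1 listed at 0. Of 9 leukocyte markers, 1 was tested and did not pass, with a sum of 3.96 to 4.32 CPM in knockdown and 3.78 to 5.53 CPM in control, and CD3E, MS4A1 and NKG7 listed at 0. Of tested markers, 44.4% of neuronal, 50% of neural crest and Schwann, 60% of astrocyte, 75% of endothelial and 55.6% of mesenchymal ones were called. The shares were 46.7% for neural stem cell, 66.7% for oligodendrocyte, 66.7% for pluripotency and 0% for leukocyte markers, beside 33.3% of all tested genes. The part of these marker changes in the falls of the potassium channel genes was not tested.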

How the data were processed

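The authors deposited 1 table per library of whole-number read counts by gene symbol, with no normalisation. Trim Galore 0.6.6, STAR 2.7.10a, bedtools and hg38 are named, per the submitters' processing notes. How reads were assigned to genes, with which strand setting and annotation, is not given in the sources used here. Per the labels' protocols, 700 ng of total RNA entered a directional kit.

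Low counts were removed by filterByExpr and libraries scaled by TMM in edgeR 4.0.16 under R 4.3.3. The quasi-likelihood test then set knockdown against control with no covariate, and p-values were adjusted by Benjamini-Hochberg over 13632 tested genes. The SE is the log2 fold change over the square root of F. Per-kilobase levels use the union of GENCODE v29 exons, matched for all 95 members, which may differ from the models counted. Alternatives were other scalings and filters, DESeq2 1.42.0, limma-voom (limma 3.58.1), a replicate block and leaving out each library. The procedure was tested on simulated data.

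By rule, the text names members past the test, the 10 tested members with the highest CPM, the highest tested member of any class without one, and the 4 called genes with the smallest p in each other list. Other members are named to account for each class, and other genes named were chosen after their values were seen. Some genes that the rule covers are not reported here. Members and lists were chosen with earlier results of these data known. No replicates agreed within sampling noise (chi-square per degree of freedom 1.23 to 1.994).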

Additional observations from a re-analysis of the deposited data

How the results depend on the processing

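Over all genes, 4545 were called, 2865 by DESeq2 (1170 higher) and 2943 at an adjusted p under 0.01 (1224 higher). Of potassium channel genes, 11 were called, 4 by DESeq2 (0 higher, 4 lower) and 6 at an adjusted p under 0.01 (1 higher, 5 lower). Without a filter, 14 of 76 members were called (18.4%), beside 22.9% of all tested genes. In that fit 4 members were higher, with KCNN1 and KCNV1 added, and 10 were lower, with KCNF1 added. Leaving out each library in turn gave 6 to 11 called members, 0 to 4 higher and 5 to 9 lower, or 17.6% to 32.4% of tested members, beside 26.3% to 31.3% of all tested genes. The 0 came without control replicate 1, with 1 higher at an unadjusted p under 0.05. Partner genes numbered 4 by DESeq2 and 3 to 6 without each library. Some members that did not pass changed sign: leaving out each library gave log2 fold changes of -0.12 to 0.27 for KCNG1, -0.11 to 0.0069 for KCNK2 and -0.10 to 0.19 for KCNN3. The cause of these changes was not tested. Same-numbered replicates correlated at 0.00979 to 0.0856 in their deviations from group means, and other pairs at -0.1118 to 0.0412. Knockdown replicates 1 and 3 correlated best with their own number, and knockdown replicate 2 did not. Whether same-numbered samples share more than the number was not tested. With the replicate number as a block, 12 members were called, KCNF1 (adjusted p = 0.0197, edgeR) in addition to the 11. That fit called 36.4% of tested members and 5248 of all tested genes (38.5%). RLE scaling, upper-quartile scaling and a filter of 1 CPM in 3 libraries each called the same 11. KCND2, at 9 counts in each knockdown library, was called in 14 of 15 settings, and the better-counted KCNK12 in 8 and KCNMB1 in 6.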
